A study of Mus musculus with 40 samples.

Results

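Interferon-stimulated genes are described here in bone marrow of mice given cyclophosphamide, an alkylating drug that damages the DNA of dividing cells. The 7 genes are Rtp4, Ifi27l2a, Gbp2, Irf9, Ifih1, Oasl2 and Ifitm2. They were chosen by name from the annotation of the probes, with earlier results of these data known. They are 7 of 9616 gene symbols on the array and 7 of the 3926 named genes that were measured in enough mice to be tested, and each of the 7 has 1 probe. RNA of bone marrow cells came from 20 DBA/2 mice, an inbred laboratory strain, in 4 groups of 5. The 3 treated groups were harvested 1, 2 and 5 days after 83 mg/kg cyclophosphamide by the intraperitoneal route, and the control mice were untreated. No vehicle injection is described for the control mice, so the injection itself cannot be told apart from the drug. Age and sex are not stated. Each mouse was hybridised on 2 arrays against 1 common pool, and its values were averaged, so n counts mice. The pool is labelled as marrow of untreated mice, but its treatment field names cyclophosphamide. It cancels in differences between groups, whereas the sign of a single log2 ratio depends on it. The levels below are log2 ratios of a mouse over the pool, and a log2 change is a difference between 2 group means of them.

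Interferons are secreted proteins that bind receptors on nearly all nucleated cells. Their receptors activate JAK kinases and STAT proteins, and transcription factor complexes that contain Irf9 bind a short element in the promoters of target genes, the interferon-stimulated response element. The targets include sensors of viral nucleic acid, GTPases that act on intracellular microbes, membrane proteins that hinder viral entry, and proteins of antigen processing. Several are present at a resting level without infection, and in marrow their level differs between blood cell types. No interferon treatment is described for these mice, so the name of the group is the textbook one for these genes and not a measured response.

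Promoter windows of 4 of the genes are shown because most members moved together on day 5 and Ifitm2 moved the other way. The windows are from RefSeq, build GRCm38.p6, and run from 250 bases before to 50 bases after a transcript start, each on the strand of the gene. This start need not be the outermost base of the gene. Ifitm2 is annotated at chr7:140954837-140959686, so its window lies inside the gene. Entries were found for 5 of the 7 genes, in 6 windows, since Irf9 has more than 1. Capitals mark a match to GAAANNGAAA, a core of the response element, which was searched on both strands. The windows are Gbp2 at chr3:142620413-142620712 on the plus strand, Ifih1 at chr2:62646206-62646505 on the minus strand, Ifitm2 at chr7:140955912-140956211 on the minus strand and Oasl2 at chr5:114896684-114896983 on the plus strand.
Gbp2: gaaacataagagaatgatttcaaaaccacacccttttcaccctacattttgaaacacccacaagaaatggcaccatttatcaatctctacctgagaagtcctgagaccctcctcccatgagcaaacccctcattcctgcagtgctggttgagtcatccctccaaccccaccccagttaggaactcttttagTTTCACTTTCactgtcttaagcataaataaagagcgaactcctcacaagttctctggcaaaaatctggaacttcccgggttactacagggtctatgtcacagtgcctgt
Ifih1: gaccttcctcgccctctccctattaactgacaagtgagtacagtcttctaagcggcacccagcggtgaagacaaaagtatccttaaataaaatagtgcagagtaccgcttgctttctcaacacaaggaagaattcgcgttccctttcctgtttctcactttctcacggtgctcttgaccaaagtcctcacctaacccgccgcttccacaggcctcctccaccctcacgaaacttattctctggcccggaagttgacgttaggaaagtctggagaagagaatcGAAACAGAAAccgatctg
Ifitm2: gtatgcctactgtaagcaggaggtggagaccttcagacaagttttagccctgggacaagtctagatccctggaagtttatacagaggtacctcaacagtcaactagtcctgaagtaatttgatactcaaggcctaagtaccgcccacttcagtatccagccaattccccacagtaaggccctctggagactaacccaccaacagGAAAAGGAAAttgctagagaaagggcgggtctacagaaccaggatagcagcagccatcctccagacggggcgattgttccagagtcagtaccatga
Oasl2: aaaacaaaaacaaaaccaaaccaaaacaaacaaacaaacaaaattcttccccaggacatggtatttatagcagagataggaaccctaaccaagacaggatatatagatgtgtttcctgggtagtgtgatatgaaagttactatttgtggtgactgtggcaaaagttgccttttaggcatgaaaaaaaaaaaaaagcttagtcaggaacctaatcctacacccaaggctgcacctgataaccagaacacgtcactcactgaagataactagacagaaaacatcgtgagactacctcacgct

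The match lay at -59 to -50 from the transcript start in Gbp2, where it reads on the opposite strand. It lay at -46 to -37 in Ifitm2 and at 33 to 42 in Ifih1, counted with the first base of the transcript as 1. No match was in the window of Oasl2 or in the windows of Irf9. Among all 32851 RefSeq windows, 3.44% held a match, as did 9 of 30 windows (30%) of the other interferon pathway genes that were tested. The STAT motif TTCNNNGAA, also searched on both strands, was in 0 of the 6 windows, in 8.3% of all windows and in 6 of the 30 pathway windows (20%). The letters GAAANNGAAA were thus found both in Gbp2, which was lower on day 5, and in Ifitm2, which was higher.

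By day 5 the level of most of these genes was below that of untreated marrow. On day 5 against control 5 of the 7 were lower, Rtp4, Ifi27l2a, Gbp2, Irf9 and Oasl2, while Ifitm2 was higher and Ifih1 did not pass the test. The test was limma's moderated test over all 5297 genes and unnamed probes with Benjamini-Hochberg adjustment, and a call is an adjusted p under 0.05. In this comparison 2.62% of all features were called, 1.72% lower and 0.906% higher. The median log2 change was -0.81 over the 7 genes and 0.0078 over all features. The mice of both groups did not overlap for 6 of the 7 genes, Ifih1 being the exception. Of all features 6.34% had groups that did not overlap. The 7 genes were chosen with earlier results of these data known, so these contrasts with all features are a description and not a test. In whole marrow, fewer cells that carry a transcript and less of it per cell cannot be told apart.

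**Figure D1:**
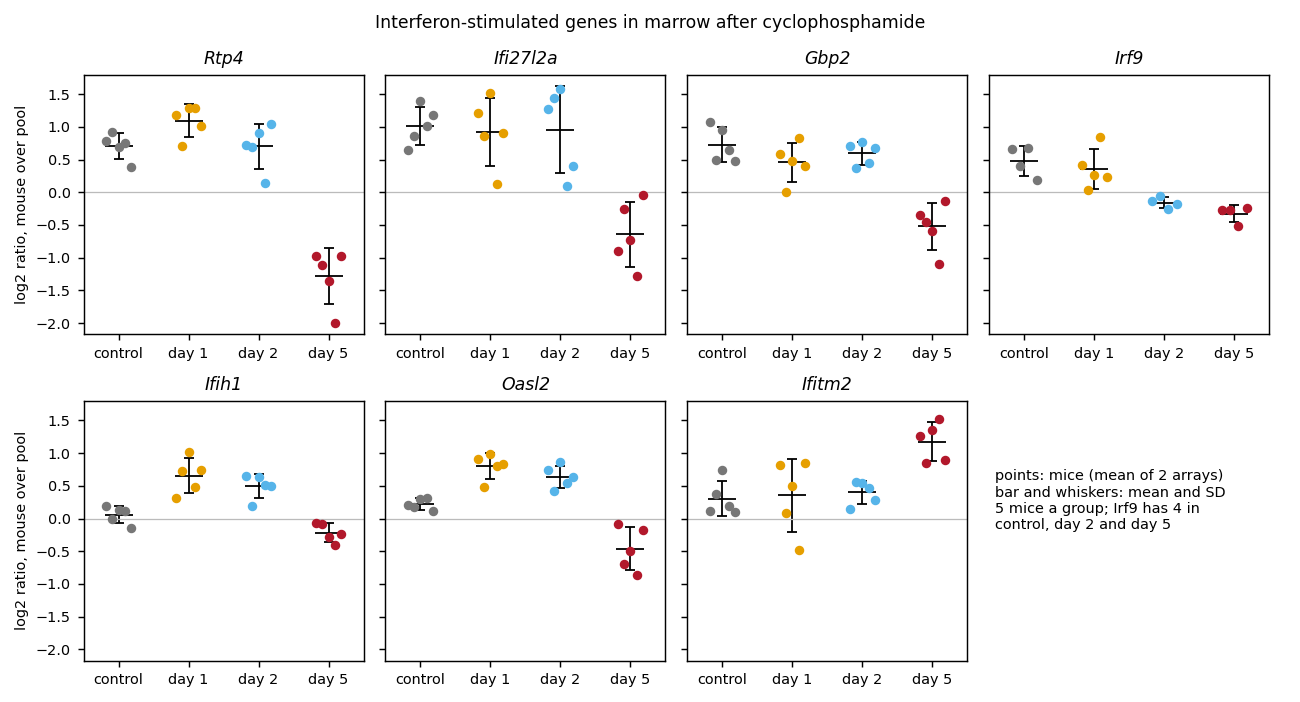
Log2 ratio of each mouse over the common pool for the 7 interferon-stimulated genes in control, day 1, day 2 and day 5 mice. Points are mice, the bar is the group mean and whiskers are the SD (n = 5 mice a group, 4 for Irf9 in control, day 2 and day 5). The 5 day 5 mice lie between -1.99 and -0.97 for Rtp4, below all other mice, and between 0.85 and 1.53 for Ifitm2, above all other mice.

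Rtp4, a Golgi chaperone of receptors that interferon induces, fell most among the 7. Its log2 ratios were 0.78, 0.91, 0.69, 0.75 and 0.38 in control mice and 1.19, 0.70, 1.29, 1.29 and 1.01 on day 1. They were 0.72, 0.69, 0.91, 0.14 and 1.04 on day 2 and -0.97, -1.12, -1.36, -1.99 and -0.98 on day 5. All 5 day 5 mice lay below every other mouse, and control, day 1 and day 2 mice overlapped. Against control, the day 5 log2 change was -1.99 ± 0.18 (SE, n = 5 and 5 mice, limma adjusted p = 1.23e-07), a level 3.96-fold lower. Of the 3926 named genes this was the smallest p, and its log2 change ranked 2 from the lowest.

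Ifi27l2a encodes a small hydrophobic membrane protein of the ISG12 family. Its log2 ratios were 0.65, 0.85, 1.40, 1.01 and 1.18 in control mice and 1.21, 0.85, 1.51, 0.12 and 0.91 on day 1. They were 1.27, 1.44, 1.57, 0.09 and 0.41 on day 2 and -0.90, -0.25, -0.73, -1.28 and -0.04 on day 5. The day 5 mice were again below all others, but the spread within the treated groups was wide, with an SD of 0.52 on day 1, 0.66 on day 2 and 0.50 on day 5, against 0.29 in control mice. The day 5 log2 change against control was -1.66 ± 0.27 (SE, n = 5 and 5, limma adjusted p = 0.00059), or 3.15-fold lower. The value of control mouse 4 came from 1 array, and the 2 arrays of a mouse differed by up to 0.66 for this gene.

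Gbp2, a guanylate-binding protein and GTPase that interferon gamma induces strongly, was lower on day 5 as well. The log2 ratios of Gbp2 were 1.07, 0.50, 0.95, 0.65 and 0.47 in control mice and 0.59, 0.0033, 0.48, 0.82 and 0.40 on day 1. They were 0.71, 0.38, 0.77, 0.44 and 0.67 on day 2 and -0.34, -0.46, -0.59, -1.10 and -0.13 on day 5. Day 5 mice stood apart below all others, and the other 3 groups overlapped. The day 5 log2 change against control was -1.25 ± 0.16 (SE, n = 5 and 5, limma adjusted p = 4.8e-05), 2.38-fold lower. Guanylate-binding proteins form a family of similar sequence, and what else the probe binds was not tested.

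Oasl2, of the family of oligoadenylate synthetases that double-stranded RNA activates, was first higher and then lower. Its log2 ratios were 0.20, 0.17, 0.30, 0.32 and 0.11 in control mice and 0.91, 0.49, 0.99, 0.80 and 0.83 on day 1. They were 0.74, 0.41, 0.86, 0.54 and 0.63 on day 2 and -0.08, -0.69, -0.49, -0.86 and -0.17 on day 5. Day 1 and day 2 mice were all above the control mice, and day 5 mice were all below them. The log2 change against control was 0.58 ± 0.13 on day 1 (limma adjusted p = 0.0044), 0.42 ± 0.13 on day 2 (limma adjusted p = 0.0309) and -0.68 ± 0.13 on day 5 (limma adjusted p = 0.0035), each with 5 and 5 mice. The call on day 2 was lost without control mouse 1, 2 or 5 or without day 2 mouse 1 or 3, where the adjusted p ran from 0.0558 to 0.0898.

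Ifih1 encodes the cytoplasmic sensor of long double-stranded RNA. The sensor had log2 ratios of 0.20, -0.0047, 0.13, 0.11 and -0.14 in control mice and 0.32, 0.72, 1.01, 0.48 and 0.74 on day 1. They were 0.66, 0.19, 0.63, 0.51 and 0.50 on day 2 and -0.07, -0.08, -0.28, -0.40 and -0.24 on day 5. Day 1 mice were all above control mice, 1 day 2 mouse lay within the control range, and day 5 mice overlapped the control mice at the lower end. The log2 change against control was 0.59 ± 0.12 on day 1 (limma adjusted p = 0.0022) and 0.44 ± 0.12 on day 2 (limma adjusted p = 0.0141). On day 5 it was -0.27 ± 0.12 with a 95% interval of -0.52 to -0.02 and an adjusted p of 0.368 in limma, so the difference did not pass.

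Irf9, the DNA-binding subunit of the complex that carries the interferon signal to these promoters, was lower from day 2 on. The Irf9 log2 ratios were 0.66, 0.40, 0.68 and 0.18 in the 4 control mice with a value and 0.42, 0.03, 0.27, 0.85 and 0.23 in the 5 day 1 mice. They were -0.14, -0.06, -0.26 and -0.19 in 4 day 2 mice and -0.27, -0.27, -0.52 and -0.24 in 4 day 5 mice. Day 2 and day 5 mice lay below every control and day 1 mouse. The log2 change against control was -0.12 ± 0.14 on day 1 (limma adjusted p = 0.598), -0.64 ± 0.15 on day 2 (limma adjusted p = 0.00517) and -0.81 ± 0.15 on day 5 (limma adjusted p = 0.00279). Irf9 was blank in control mouse 4, day 2 mouse 1 and day 5 mouse 1, and nothing was filled in. The values of day 2 mouse 3 and day 5 mouse 3 came from 1 array each. The 2 arrays of day 2 mouse 5 read 0.07 and -0.44, and the first of them lies above day 1 mouse 2.

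Ifitm2, a membrane protein of the family that hinders the entry of enveloped viruses, went against the others. Its log2 ratios were 0.12, 0.37, 0.74, 0.19 and 0.10 in control mice and 0.82, 0.09, 0.50, -0.48 and 0.84 on day 1. They were 0.14, 0.56, 0.54, 0.47 and 0.29 on day 2 and 1.25, 0.85, 1.35, 1.53 and 0.90 on day 5. Day 5 mice were all above every other mouse, and the other 3 groups overlapped. Against control, the day 5 log2 change was 0.87 ± 0.20 (SE, n = 5 and 5, limma adjusted p = 0.0124), 1.83-fold higher. The Ifitm genes are close paralogs, and how far this probe also reports its neighbours was not tested.

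**Figure D2:**
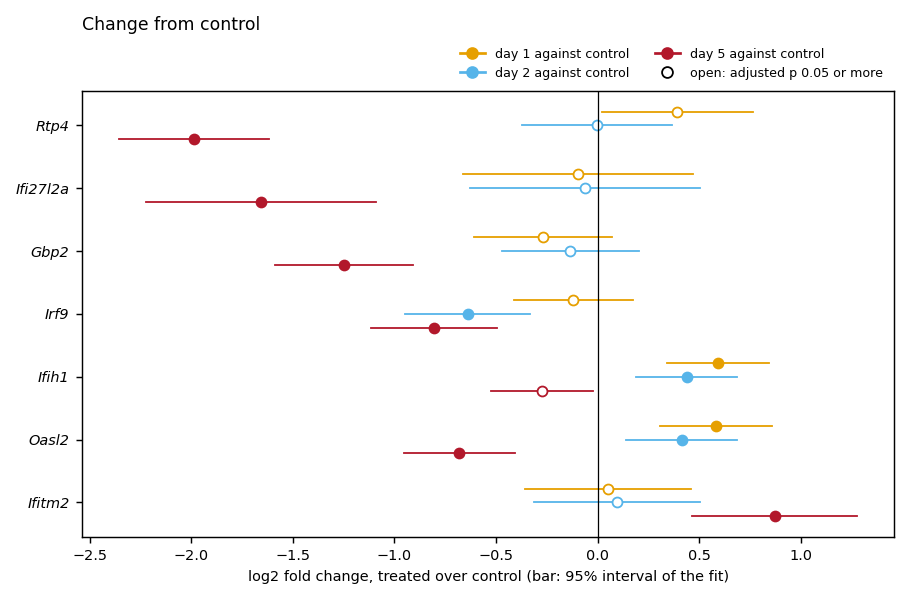
Log2 fold change of the 7 genes on day 1, day 2 and day 5 against control, with the 95% interval of the fit. Filled points passed an adjusted p of 0.05 and open points did not. On day 1 and day 2 Ifih1 and Oasl2 lie right of 0, and on day 5 Rtp4 lies at -1.99 and Ifitm2 at 0.87.

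On day 1 against control 2 of the 7 genes were called, both higher, Ifih1 and Oasl2. Of all features 19.1% were called in this comparison, 10.7% higher and 8.38% lower, so the share among the 7 is not far from that of the array. Rtp4 had a log2 change of 0.39 ± 0.18 that did not pass (limma adjusted p = 0.128), and Ifi27l2a, Gbp2, Irf9 and Ifitm2 had changes between -0.27 and 0.05. The median over the 7 genes was 0.051, against -0.015 over all features. On day 2 against control Ifih1 and Oasl2 were higher and Irf9 was lower, while 19.2% of all features were called, 9.61% higher and 9.61% lower. Rtp4, at -0.0013 ± 0.18, had its day 2 mean beside its control mean, and the interval of that difference ran from -0.37 to 0.37. Under quantile normalization between arrays it was -0.34 on day 2 (limma adjusted p = 0.232) and 0.02 on day 1 (limma adjusted p = 0.969). Ifi27l2a had a wider interval on day 2, from -0.63 to 0.50, so that a change of that size was not detectable with these mice. Other small changes also depended on the processing. Over the 33 alternatives given below, Ifi27l2a ran from -0.58 to 0.15 on day 2 and from -0.54 to 0.10 on day 1. Gbp2 ran from -0.45 to -0.05 on day 2, where its lowest limma adjusted p was 0.0601.

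Day 5 was also Set against the earlier treated days. Compared with day 1, all 7 genes were called on day 5, 6 lower and Ifitm2 higher, where 25.3% of all features were called, 13.1% lower and 12.2% higher. The log2 changes were -2.38 ± 0.18 for Rtp4, -1.56 ± 0.27 for Ifi27l2a, -1.26 ± 0.13 for Oasl2 and -0.98 ± 0.16 for Gbp2. Ifih1 fell by 0.87, Irf9 fell by 0.69 and Ifitm2 rose by 0.82 on the log2 scale, and the limma adjusted p-values of the 7 ran from 4.46e-09 to 0.00354. Compared with day 2, 6 of 7 were called on day 5, again with Ifitm2 higher, where 20.8% of features were called, 10.5% lower and 10.3% higher. Irf9 was the exception, at -0.17 ± 0.15 (limma adjusted p = 0.47). Ifih1, not called on day 5 against control, was lower on day 5 than on day 2 with a log2 change of -0.71 ± 0.12 (limma adjusted p = 0.000201) in mice that did not overlap. These comparisons share their day 5 mice with day 5 against control and are not separate evidence.

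On day 2 against day 1 limma called 0 of the 7, with 2 of the 7 at an unadjusted p under 0.05, Rtp4 and Irf9, and 2.1% of all features were called, 0.736% lower. Irf9 had a log2 change of -0.52 ± 0.14 in mice that did not overlap (limma adjusted p = 0.0576), and without control mouse 5, day 1 mouse 2 or day 5 mouse 4 its adjusted p was 0.0482, 0.0231 and 0.0435. Rtp4 had -0.39 ± 0.18 (limma adjusted p = 0.328). The other 5 had log2 changes between -0.17 and 0.14, and the widest interval, that of Ifi27l2a, ran from -0.53 to 0.60.

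Mouse 4 of the day 5 group was the lowest of its group for 6 of the 7 genes and the highest for Ifitm2, so its values were the most extreme for each of them. Its mean over 6 erythroid genes was -1.15, against -0.37 to -0.15 in the other 4 day 5 mice, and whether the RNA of that mouse differed in quality was not tested. Without it 6 of the 7 genes were still called on day 5 against control, with log2 changes of -1.81 for Rtp4, -1.50 for Ifi27l2a, -1.11 for Gbp2, -0.74 for Irf9, -0.58 for Oasl2 and 0.79 for Ifitm2. The limma adjusted p of Ifitm2 was then 0.0431. The control group also had a mouse that was low across members. Control mouse 5 was the lowest of its group for Rtp4, Gbp2, Irf9, Ifih1, Oasl2 and Ifitm2.

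Within groups the genes also varied together in part. After each group mean was taken out, Gbp2 and Irf9 had a Pearson correlation of 0.81 over 17 mice, and over 20 mice Rtp4 had 0.75 with Gbp2 and 0.69 with Oasl2, and Gbp2 had 0.73 with Oasl2. All other pairs had lower values. Ifi27l2a had correlations between -0.05 and 0.37 with the other 6, Ifih1 had between -0.07 and 0.39, and Ifitm2 had between -0.32 and 0.21. These are descriptions over mice, and the genes of a mouse share the same RNA and the same 2 arrays. How far day 5 mouse 4 and control mouse 5, each low for most members, carry these correlations was not tested. The median difference between the 2 arrays of a mouse was 0.03 for Rtp4 and Ifitm2, 0.04 for Gbp2, Ifih1 and Oasl2, 0.08 for Ifi27l2a and 0.11 for Irf9.

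The rest of the interferon pathway was read from 6 lists of 129 genes, of which 83 were annotated on the array and 34 were measured in enough mice to be tested. On day 5 against control 7 of the 34 were lower, 0 were higher and 27 did not pass, and 29 of the 34 had a log2 change below 0. The 7 are 20.6% of the 34, where 2.62% of all features were called. These lists were also drawn up with earlier results known, so the contrast is a description. The median was -0.17, against 0.0078 over all features. On day 1 and on day 2 against control 4 of 34 were called, 2 higher and 2 lower on day 1 and 1 higher and 3 lower on day 2. They were Epsti1 and Ube2l6 (higher) and Iigp1 and Psmb10 (lower) on day 1, and Epsti1 (higher) and Irgm2, Psmb10 and Tap1 (lower) on day 2. On each of these days the 4 calls are 11.8% of the 34, while 19.1% of all features were called on day 1 and 19.2% on day 2. Day 5 had 7 lower and 1 higher, Irgm2, against day 2, or 23.5% of the 34 where 20.8% of all features were called. Against day 1 it had 13 lower and 0 higher, or 38.2% where 25.3% of all features were called. The 3 comparisons share their control mice.

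**Figure D3:**
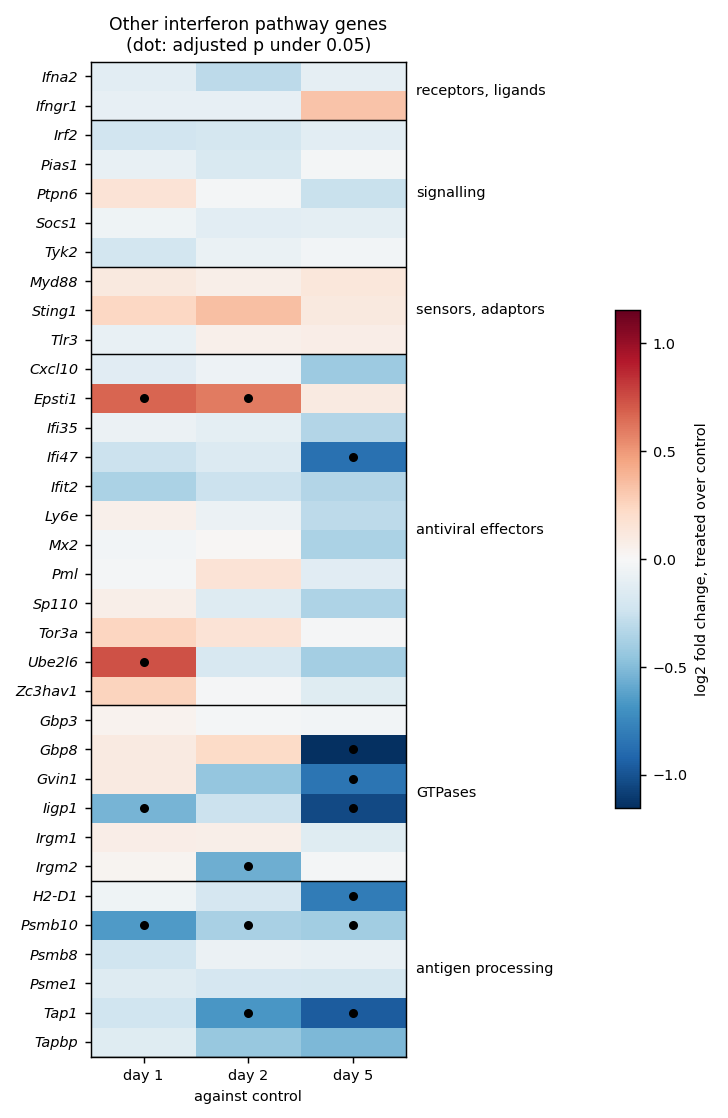
Log2 fold change on day 1, day 2 and day 5 against control for the 34 other interferon pathway genes that were tested, by role. Colour gives the change, and a dot marks an adjusted p under 0.05. The 7 dots on day 5 are all on genes that were lower, in the GTPases, antigen processing and the antiviral effectors.

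Ligands, receptors and signalling genes gave 0 calls against control on any of the 3 days in limma, with 0 at an unadjusted p under 0.05 on day 1 and day 5 and 1 on day 2. Of 12 listed ligands and receptors 8 were annotated, 6 had any value and 2 were tested. Ifngr1, a chain of the interferon gamma receptor, had 0.33 ± 0.16 on day 5 (limma adjusted p = 0.473), with 0 of the 2 genes at an unadjusted p under 0.05. Of 5 signalling genes tested, the one with the smallest p on day 5 was Ptpn6, a phosphatase that restrains JAK kinases, with -0.26 ± 0.13 (limma adjusted p = 0.509). Ptpn6 was lower on day 5 against day 1, at -0.42 ± 0.13 (limma adjusted p = 0.0272). The 3 sensors and adaptors tested gave 0 calls in limma and 0 at an unadjusted p under 0.05 on day 5, and Myd88, an adaptor of Toll-like receptors, had 0.13 ± 0.15 on day 5 (limma adjusted p = 0.893).

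Of 6 interferon-inducible GTPases 3 were lower on day 5, the median being -0.49. Gbp8, a guanylate-binding protein like Gbp2, lay between -1.73 and -0.31 on day 5, with a median of -0.89, against 0.09 to 0.48 in control mice, with a median of 0.29. Its log2 change was -1.15 ± 0.19 (limma adjusted p = 0.00059), and the groups did not overlap. Iigp1, an immunity-related GTPase that acts on parasite vacuoles, had -1.04 ± 0.17 on day 5 (limma adjusted p = 0.000621), in mice that overlapped the control mice, and -0.54 ± 0.17 on day 1 (limma adjusted p = 0.0335). Gvin1, a very large inducible GTPase, had -0.85 ± 0.17 on day 5 over 4 and 4 mice (limma adjusted p = 0.00636). Irgm2, which regulates immunity-related GTPases, behaved otherwise, with -0.56 ± 0.14 on day 2 (limma adjusted p = 0.0105) and -0.02 ± 0.15 on day 5 (limma adjusted p = 0.984).

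Antigen processing genes were lower for 3 of 6 on day 5, with a median of -0.46. Tap1, 1 chain of the peptide transporter of the endoplasmic reticulum, had -0.96 ± 0.14 on day 5 (limma adjusted p = 0.000268) and -0.67 ± 0.14 on day 2 (limma adjusted p = 0.002). H2-D1, a class I major histocompatibility heavy chain, had -0.81 ± 0.18 over 4 day 5 and 5 control mice (limma adjusted p = 0.0133), and its sequence is close to that of other class I genes. Psmb10, a subunit of the immunoproteasome, was lower on all 3 days, at -0.66 ± 0.10 on day 1, -0.37 ± 0.10 on day 2 and -0.40 ± 0.10 on day 5 (limma adjusted p = 0.000492, 0.0147 and 0.0321). Psmb10 thus reached its lowest mean on day 1, when Oasl2 and Ifih1 were at their highest.

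Of 12 further antiviral effectors 1 was lower on day 5, Ifi47, an immunity-related GTPase by family, at -0.86 ± 0.17 (limma adjusted p = 0.00379). The list had 11 of 12 log2 changes below 0 on day 5 and a median of -0.34, and 5 of 12 had an unadjusted p under 0.05. Epsti1, an interferon-induced gene, was higher by 0.67 ± 0.13 on day 1 (limma adjusted p = 0.00154) and 0.60 ± 0.13 on day 2 (limma adjusted p = 0.00301), as Ifih1 and Oasl2 were. On day 5 it had 0.10 ± 0.13 (limma adjusted p = 0.907). Ube2l6, the conjugating enzyme for the ubiquitin-like modifier that interferon induces, was higher by 0.73 ± 0.19 on day 1 (limma adjusted p = 0.0116) and had -0.19 ± 0.19 on day 2 (limma adjusted p = 0.557).

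Markers of several marrow cell types moved on the same days, and their part in the results above was not tested. On day 5 against control 4 of 5 B cell genes were lower, Cd22, Ms4a1, Vpreb1 and Vpreb3, of which Vpreb1 and Vpreb3 were named after their values were seen. The mean of the 3 B cell genes with a value in every mouse lay between -2.00 and -1.08 on day 5, against -0.21 to 0.06 in control mice. Cd22, an inhibitory receptor of B cells, had 0.52 ± 0.13 on day 1 (limma adjusted p = 0.00928), 0.38 ± 0.13 on day 2 (limma adjusted p = 0.0465) and -0.99 ± 0.13 on day 5 (limma adjusted p = 5.17e-05). The list was mixed on days 1 and 2, with 1 of 5 genes higher, Cd22, and 2 lower on each day, and medians of -0.52 and -0.63. Vpreb1 and Vpreb3, which belong to the receptor of B cell precursors, had -1.15 ± 0.22 and -0.97 ± 0.28 on day 1 (limma adjusted p = 0.00128 and 0.018) and -1.05 ± 0.23 and -1.51 ± 0.28 on day 2 (limma adjusted p = 0.00315 and 0.000787). Ms4a1, a B cell surface antigen, had -1.79 ± 0.40 on day 5 (limma adjusted p = 0.0116). Of the other B cell markers Cd79a, Cd79b, Pax5 and Ebf1 were annotated but measured in too few mice.

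Some monocyte and granulocyte precursor genes went the other way on day 5. F13a1, a monocyte transglutaminase, was higher by 0.84 ± 0.11 (limma adjusted p = 2.39e-05) and Ms4a6c by 0.62 ± 0.14 (limma adjusted p = 0.0143), 2 of 4 monocyte genes. The other 2 did not pass. Cybb had a mean of 0.27 on day 5 and 0.37 in control mice, and Mpeg1 had 0.30 and 0.20. Prtn3, a protease of primary granules, was higher by 1.35 ± 0.23 (limma adjusted p = 0.000914), 1 of 2 precursor genes, and Plac8 had 0.59 ± 0.18 (limma adjusted p = 0.0725). F13a1, the monocyte gene with a value in every mouse, lay between 0.56 and 0.90 on day 5, against -0.36 to 0.01 in control mice. Ifitm2 also had its highest mean on day 5. On day 1 against control 2 of 4 monocyte genes and 2 of 2 precursor genes were lower. Prtn3 then had -1.15 ± 0.23 (limma adjusted p = 0.00202) and Plac8 -0.66 ± 0.18 (limma adjusted p = 0.0115). The mean of F13a1 was -1.09 on day 1 and -0.18 in control mice. Ifitm2 had a day 1 change of 0.05 ± 0.20 (limma adjusted p = 0.882), so it did not share this fall.

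**Figure D4:**
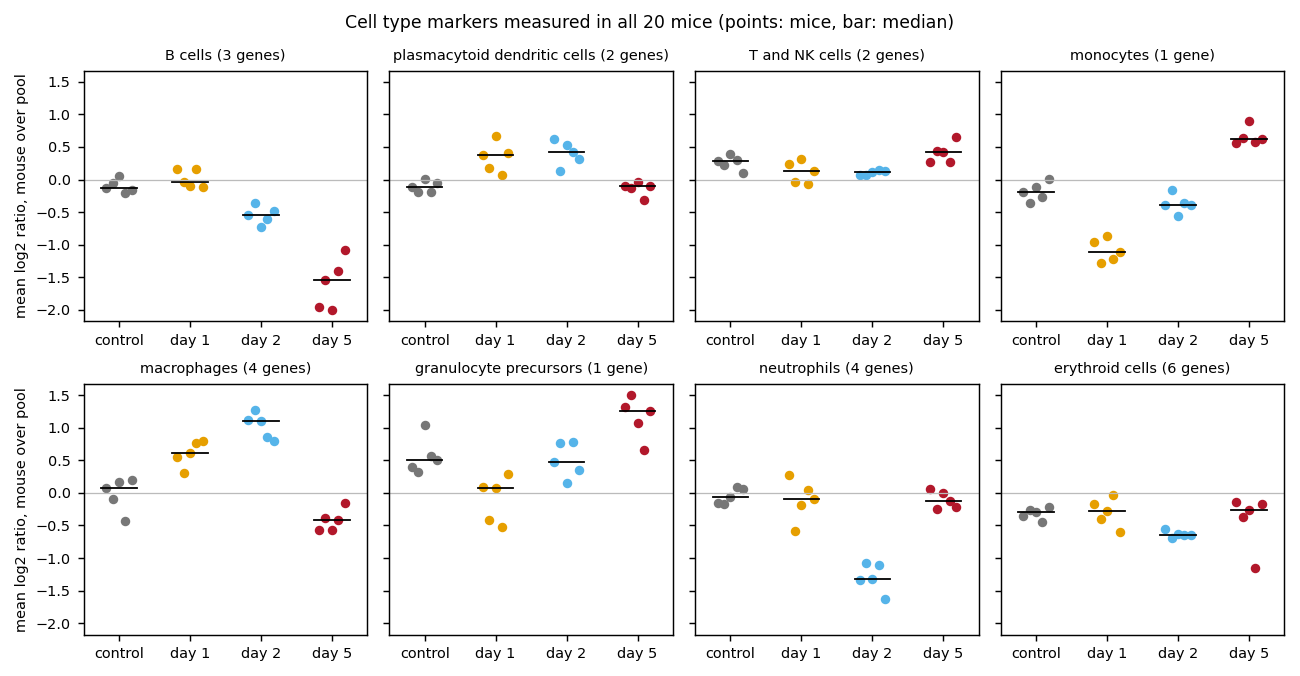
Mean log2 ratio over the markers of 8 cell types that had a value in all 20 mice, by mouse, in control, day 1, day 2 and day 5 marrow. Points are mice and the bar is the median. B cell genes are lowest on day 5, from -2.00 to -1.08, and macrophage genes are highest on day 2, from 0.80 to 1.27.

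Macrophage genes were higher on the days on which Ifih1 and Oasl2 were higher, but the order of the days differed. On day 2 against control 5 of 5 macrophage genes were higher and on day 1 it was 2 of 5. The mean of the 4 with a value in every mouse lay between -0.44 and 0.20 in control mice, 0.30 and 0.80 on day 1 and 0.80 and 1.27 on day 2. Ifih1 had group means of 0.65 on day 1 and 0.50 on day 2, and Oasl2 had 0.80 and 0.64. Siglec1, a macrophage adhesion receptor that interferon also induces, had 1.19 ± 0.14 on day 2 (limma adjusted p = 8.11e-06) and 0.29 ± 0.14 on day 1 (limma adjusted p = 0.15). Adgre1, a macrophage surface receptor, had 0.72 ± 0.12 on day 2 (limma adjusted p = 0.000348). On day 5 limma called 0 of the 5 against control, with 4 of 5 at an unadjusted p under 0.05, and the mean of the 4 lay between -0.57 and -0.16.

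Plasmacytoid dendritic cells, the strongest producers of type I interferon, were covered by 3 tested genes. Ccr9, a chemokine receptor found on them, was higher on day 1 by 0.74 ± 0.13 (limma adjusted p = 0.000735) and on day 2 by 0.77 ± 0.13 (limma adjusted p = 0.00031), and had -0.10 ± 0.13 on day 5 (limma adjusted p = 0.903). Tcf4, their lineage factor, did not pass against control and was lower on day 5 against day 1 with a log2 change of -0.50 ± 0.17 (limma adjusted p = 0.0304). Cox6a2, the third gene, did not pass against control on any day. Its group means were -0.04 in control mice, 0.13 on day 1, 0.22 on day 2 and 0.01 on day 5. Siglech, a defining marker, is not in the probe annotation used here. In the neutrophil list 4 of 6 genes were lower on day 2, among them Ltf at -1.96 ± 0.19 (limma adjusted p = 1.39e-06) and Cd177 at -1.53 ± 0.16 (limma adjusted p = 3.11e-06). Csf3r and Mmp9, named after their values were seen, were the 2 of 6 that were lower on day 5. On that day Ltf and Cd177 had 0.17 ± 0.19 and 0.07 ± 0.16 (limma adjusted p = 0.88 and 0.953).

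In the other lists Nkg7, a granule gene of T and NK cells, was higher on day 5 against day 2 by 0.75 ± 0.15 (limma adjusted p = 0.00121), 1 of the 2 genes of that list that were tested. The other, Klrd1, an NK cell receptor chain, had -0.14 ± 0.13 (limma adjusted p = 0.501). The T cell genes Cd3d, Cd3e and Cd3g were measured in too few mice. Erythroid genes gave 0 calls of 9 on day 5 against control in limma, with 0 of 9 at an unadjusted p under 0.05, and 3 lower calls on day 2. Alas2, which starts haem production in red cell precursors, was higher by 1.36 ± 0.21 on day 1 (limma adjusted p = 0.000474), the 1 call of 9 on that day, when 6 of the 9 were below 0 and the list's median was -0.37. Kel, a red cell surface protein, had -0.94 ± 0.23 on day 2 (limma adjusted p = 0.00616).

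The genes most like the members were looked up among the 2248 named genes with a value in all 20 mice. The measure was the Pearson correlation over the 20 mice with the mean of the 6 members that had a value in every mouse, Irf9 being left out. The 5 closest were Il1b (0.93), H2-Aa (0.92), Ankrd33b (0.90), Cd22 (0.89) and Cyp4f18 (0.89). Il1b encodes a pro-inflammatory cytokine, and its mean log2 ratio was 0.21 in control mice, 1.13 on day 1, 1.12 on day 2 and -1.67 on day 5. H2-Aa, a class II histocompatibility chain of antigen-presenting cells, had means of 0.04, 0.78, 0.33 and -1.30 in the same order, and Cyp4f18, a cytochrome P450, had 0.11, 0.52, 0.0098 and -2.21. In all 5 genes day 5 had the lowest mean of the 4 groups. They were picked for likeness to a mean that was itself lowest on day 5, so this is not a separate result. The correlations include these differences between groups. Rtp4 (0.96), Oasl2 (0.94), Ifi27l2a (0.91), Gbp2 (0.88) and Ifih1 (0.80) had positive correlations with that mean, of which each is a part, and Ifitm2 had -0.60.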

How the data were processed

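The deposited values, a number for each probe on each of 40 arrays, were taken here as log2 ratios of the mouse (Cy5, per the labels) over the common pool (Cy3). The direction is assumed from the dyes. Of 780 pairs of arrays 0 correlated below -0.3, which cannot show an inversion that all arrays share. The authors' scanner, background correction, normalization, probe filter and log base are in none of the labels or headers used here. Array medians lay within 0.0151 of 0, as after centring. If the values are natural logarithms, each fold is larger than stated. Between 40.7% and 69.7% of the 13443 probes were blank on an array, and no value was filled in. Spot signals and background are not used here, so how far weak spots limit the precision was not tested. On 34 arrays a set of probes shared 1 value to within 0.001, as saturated spots would, and 0 values of the 7 genes were among them.

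Of the probes 10032 had 1 gene symbol, 170 had several and 3241 had no entry, and 10028 of the first matched RefSeq. The arrays of a mouse were averaged, then the probes of a symbol. Features with a value in at least 3 mice of every group (5297) were fitted in limma 3.58.1 under R 4.3.3 with 1 mean per group over all 20 mice, eBayes moderation (prior degrees of freedom 7.8, median SD 0.2) and Benjamini-Hochberg adjustment at 0.05. Errors of fold changes are standard errors of this fit. The labels call the mice biological replicates that were harvested separately.

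The members and lists were chosen with earlier results of these data known. All 7 members were named. Of each pathway list up to 4 genes that passed on day 5 against control and up to 2 that passed on day 1 or 2 against control or on day 5 against day 2 were named by smallest adjusted p, or else the gene with the smallest p on day 5. Of each marker list up to 2 were named, and of the genes most like the members 5. The fit was tested on simulated data. When 200 of 5297 features were altered on day 5 against control, 45% of changes of 0.5 and 95.9% of changes of 1 on the log2 scale were called, with 6 false calls.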

Additional observations from a re-analysis of the deposited data

Results flagged for a closer look

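In day 5 mouse 4 the log2 ratio of Irf9 was -0.52, and the next of the 4 measured day 5 mice was at -0.27. The gap was 0.891 of the whole range, above Dixon's critical value at 95%. Of 28 groups of member values tested this was the 1 that passed, and chance gives about 1 in 20.

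The change from control differed between days for 13 pairs of a gene and 2 days, each tested as the difference of the days in limma. For day 5 against day 2 the log2 difference was -1.98 for Rtp4, -1.60 for Ifi27l2a, -1.12 for Gbp2, -0.71 for Ifih1, -1.10 for Oasl2 and 0.78 for Ifitm2. For day 5 against day 1 it was -2.38 for Rtp4, -1.56 for Ifi27l2a, -0.98 for Gbp2, -0.69 for Irf9, -0.87 for Ifih1, -1.26 for Oasl2 and 0.82 for Ifitm2.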

How the results depend on the processing

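The member changes, the counts of members called and the counts of pathway genes called were recomputed under 33 alternatives, 20 of which left out 1 mouse. The changes of single pathway and marker genes, the correlations and the closest genes were not recomputed. Of 1386 member changes 1370 kept their direction where called and their side of the threshold, 6 lost the call, 10 gained one and 0 called values changed sign. On day 5 against control 6 members were called under all 33 alternatives, on day 5 against day 2 again 6 and on day 5 against day 1 all 7. On day 2 against day 1 the count of 0 became 1, with Irf9, when all 40 arrays were fitted with the mouse as a random block (1), with technical replicate 2 only (1), with at least 4 mice of every group (1), with arrays centred on the probes measured on all arrays (1) and with arrayWeights (1), and it ran from 0 to 1 when 1 mouse was left out. Day 2 against control gave 2 to 3 and day 1 against control 2 when 1 mouse was left out. Under quantile normalization between arrays Oasl2 on day 2 lost its call (0.32, adjusted p = 0.0561) and Gbp2 on day 1 gained one (-0.59, adjusted p = 0.0146), and Rtp4 on day 1 gained one with the random block (adjusted p = 0.0309). The cause of these changes was not tested.

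With the replicate number as a replicate block the counts were 2, 3 and 6 for days 1, 2 and 5 against control, 6 and 7 for day 5 against days 2 and 1, and 0 for day 2 against day 1, the same counts as without it. Mice with the same number were not treated as pairs, since their deviations correlated between -0.39 and 0.33 and not every correlation was above 0.1. Of 20 mice 8 correlated best with a mouse of their own number, where an even draw gives 4, a hint from the data and not from the design.

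Calls over all features moved by over 1.5 times on day 5 against control, 139 against 210 with the random block and 352 with arrayWeights, and on day 2 against day 1, 111 against 241, 185, 52 with only both groups fitted and 167 without day 5 mouse 4. On day 1 against control they were 1012 against 1618 with arrayWeights, 641 without day 1 mouse 2 and 611 without day 1 mouse 3, and on day 2 against control 1018 against 592 without day 2 mouse 1. Pathway calls moved in the same way on day 2 against control (4, against 7 with arrayWeights) and on day 5 against day 1 (13, against 8 with only both groups fitted and 7 without day 1 mouse 4). On day 2 against day 1 the count of 1 pathway call ran from 0 to 3, and it was the same in 22 of 33 alternatives.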
